A study of Mus musculus with 6 samples.

Results

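Type 17 and gamma-delta T cell genes were read here as a set of 8 genes: Cd163l1, 5830411N06Rik, Il23r, Il17a, Il17re, Blk, Sox13 and Maf. They were taken as every non-control probe that carries 1 of these gene names, which gave 13 probes for all 8 genes, out of 27338 names on the array. The genes were chosen by values of these same arrays, with the fall of both scavenger receptor genes and the background calls of the others in view, so their levels and differences are a description without a test. CD8+ T cells were sorted from liver, and the mice were C57BL/6 females of 13 to 14 weeks. TGC3 mice (3 samples) carry the dnTGFβRII transgene, a dominant negative TGF-beta receptor II, and lack CXCR3 (CXCR3-/-). TG mice (3 samples) carry the same transgene and keep CXCR3, so that both groups share the block of TGF-beta signalling, and no wild-type samples were analysed. The labels give neither the promoter of the transgene nor the sorting gates beyond CD8, and nothing in them says that the samples came from separate mice, so each p-value speaks only of the spread among these 6 samples.

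Gamma-delta T cells carry a T cell receptor of gamma and delta chains in place of alpha and beta chains. One branch of them makes interleukin 17, and in mice it is marked by scavenger receptors of the SCART type, by the kinase Blk and by the transcription factors Sox13 and Maf. These cells answer interleukin 23 through Il23r and secrete Il17a early in inflammation, in the liver among other tissues. CD8+ T cells, in contrast, mostly carry an alpha-beta receptor and make interferon gamma, and CD8 cells that make interleukin 17 are a minority.

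The 2 scavenger receptor genes gave the largest differences among the genes of the set that could be fitted, and Maf was read by 4 probes that did not move alike, so these probes are shown first. All are 60 bases long, printed 5′ to 3′ in lower case as the array files give them, with positions on mouse build mm9.
Cd163l1, chr7:147416949-147417008, plus strand: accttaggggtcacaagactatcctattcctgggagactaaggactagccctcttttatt
5830411N06Rik, chr7:147486456-147486515, plus strand: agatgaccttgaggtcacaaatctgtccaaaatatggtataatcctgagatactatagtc
Maf, chr8:118231607-118231666, minus strand: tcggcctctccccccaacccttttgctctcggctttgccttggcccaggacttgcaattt
Maf, chr8:118229204-118229263, minus strand: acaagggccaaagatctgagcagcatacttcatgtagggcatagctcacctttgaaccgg
Maf, chr8:118227736-118227795, minus strand: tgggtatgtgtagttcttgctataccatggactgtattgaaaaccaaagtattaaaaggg
Maf, chr8:118207168-118207226, minus strand: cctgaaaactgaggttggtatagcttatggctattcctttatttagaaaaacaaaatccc
The scavenger receptor probes lie 69507 bases apart, and no gene of the RefSeq table lies wholly between these neighbouring genes (0 genes). The longest run of bases that the Cd163l1 and 5830411N06Rik probes share is 8 of 60. Whether either probe also reads the other gene's transcript was not tested.

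The targeted gene matched the labels. Cxcr3, the receptor removed in TGC3 mice, had signals of 23.8, 33 and 27 intensity units on the TGC3 arrays, against 68800, 66100 and 73400 on the TG arrays. Between 58.86% and 63.78% of probes lay well above background on a TGC3 array, against 59.98% to 61.38% on a TG array. Both groups carried the markers of CD8 T cells. Cd8b1, the beta chain of the CD8 coreceptor, had 159000 to 179000 units in TGC3 and 160000 to 174000 in TG. Cd8a, the alpha chain, had 94400 to 103000 units in TGC3 and 93800 to 125000 in TG. Neither Cd8b1 (-0.08 ± 0.08, adjusted p = 0.463) nor Cd8a (-0.20 ± 0.10, adjusted p = 0.201) passed limma's test, and Cd4 stayed at 32.8 to 33.4 units in TGC3 and 27.3 to 31.9 in TG. Slide 1 held every TGC3 array and slide 2 every TG array, and for the values below the effects of slide and of genotype cannot be told apart.

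Of the 8 genes, 3 met the condition for entering the fit, a probe called well above background on 3 or more of the 6 arrays: Cd163l1, 5830411N06Rik and Maf. All 3 were past an adjusted p of 0.05, with 2 lower and 1 higher in TGC3. Over all 16389 genes fitted, 26.0% were past it, 9.45% lower and 16.6% higher, and the groups did not overlap for 46.7% of genes. Since the genes were picked with this contrast known, and a gene has to be measurable to enter the fit, nothing is read from that count. A difference below is on the log2 scale (TGC3 minus TG) and is followed by limma's standard error, with 3 arrays per group, after each array's 75th percentile was subtracted.

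Cd163l1, a scavenger receptor of gamma-delta T cells in mice, was lower in TGC3. Its signal was 1060, 1290 and 2000 units on TGC3 1, TGC3 2 and TGC3 3, against 3390, 3540 and 3350 units on TG 1, TG 2 and TG 3. The groups did not overlap, and the TGC3 arrays spread widely, with TGC3 3 closest to TG. On the scaled log2 scale the level was 1.20 ± 0.44 in TGC3 and 2.55 ± 0.10 in TG (SD, n = 3 each), a difference of -1.35 ± 0.22 or 2.55-fold lower. Because a bulk sample is read, fewer cells with the transcript and less of it per cell cannot be told apart here or below.

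5830411N06Rik, the neighbouring SCART gene, differed by nearly the same amount. Its signal was 362, 489 and 507 units on TGC3 1 to TGC3 3, against 1150, 1090 and 1070 units on TG 1 to TG 3. The highest TGC3 array lay well under the lowest TG array. The scaled log2 level was -0.44 ± 0.24 in TGC3 and 0.91 ± 0.13 in TG (SD, n = 3 each), a difference of -1.36 ± 0.13 or 2.56-fold lower. The second probe of this gene (chr7:147483467-147483526, plus strand) was not well above background on any array, with 3.53 to 5.07 units in TGC3 and 3.46 to 5.31 in TG. Both genes were lower in TGC3 in each of 17 alternative settings, at -1.59 to -0.97 for Cd163l1 and -1.53 to -1.08 for 5830411N06Rik. The smallest falls, -0.97 and -1.08, came from normexp background correction on unrepaired backgrounds. In that setting the 7 dim probes of the set, at or near background, also gave -1.09 to -0.93. A fall there therefore says little about either gene.

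**Figure D1:**
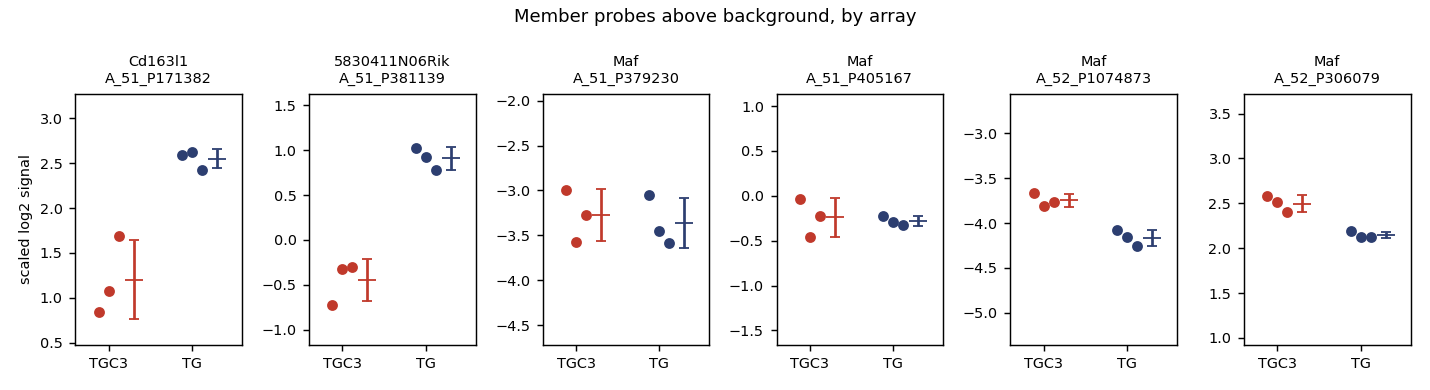
Scaled log2 signal (signal relative to each array's 75th percentile) of the 6 probes of the set kept for the fit, with TGC3 arrays left in red and TG arrays right in blue. Dots are arrays, and the bar beside them gives the mean and SD (n = 3). Cd163l1 and 5830411N06Rik lie apart between the groups, while the 4 Maf probes differ less and 2 of them overlap.

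Maf, the bZIP factor that drives Il17a expression in type 17 gamma-delta cells of mice, was read by probes that did not give 1 answer. The brightest, at chr8:118231607-118231666, had 3550, 3490 and 3280 units in TGC3, against 2570, 2510 and 2710 in TG. The groups did not overlap, and the difference was 0.35 ± 0.07, or 1.27-fold higher. The dimmest probe, the one at chr8:118207168-118207226, pointed the same way, with 46.7, 43.6 and 45.9 units in TGC3, against 33.3, 32 and 32.4 in TG (0.42 ± 0.08). The probes between them, both of the RefSeq transcript NM_001025577, overlapped between the groups. At chr8:118227736-118227795 signals were 580, 444 and 532 units in TGC3, against 481, 468 and 493 in TG (0.04 ± 0.12). At chr8:118229204-118229263 they were 74.6, 51.3 and 64.5 units in TGC3, against 68, 52.4 and 51.5 in TG (0.08 ± 0.19). The outer probes carry Ensembl transcript names. Averaged over its probes, Maf differed by 0.22, and it was past the threshold in 9 of 17 alternative settings. It was not past it without TGC3 1, TG 2 or TG 3 (0.30, 0.34 and 0.33), and centred on the median its difference was 0.17.

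Il17a, Il23r and Il17re, the ligand and receptor genes of the set, were at or near background in these samples. Il17a, the cytokine that names the type, had 5, 3.75 and 4.2 units in TGC3 and 3.29, 3.37 and 3.85 units in TG, and its probe (chr1:20723993-20724052, plus strand) was above background on no array. Il23r, which receives interleukin 23, was read by a probe whose position runs over 5000 bases (chr6:67376658-67381657, minus strand). It had 7.63, 18.1 and 3.56 units in TGC3, against 18.5, 2.76 and 3.27 in TG, and it was above background only on TGC3 2 and TG 1. Il17re, part of the receptor for interleukin 17C, had 4.72, 23.4 and 8.22 units in TGC3, against 26.3, 14.1 and 6.34 in TG on its brighter probe, which was above background on the same arrays, TGC3 2 and TG 1. Its other probe was above background on none.

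The kinase and the Sry-type factor of the lineage were also dim. Blk, a Src family kinase that interleukin 17 gamma-delta cells and B cells use, had 4.14, 3.69 and 3.63 units in TGC3, against 8.84, 2.93 and 3.37 in TG. Sox13, a transcription factor that sets gamma-delta fate, had 4.06, 3.59 and 3.49 units in TGC3, against 2.70, 2.82 and 3.18 in TG. Neither was above background on any array. The lowest signal called above background was 12.8 to 18.1 units on the TGC3 arrays and 12.1 to 14.3 on the TG arrays. Levels under it carry no order, so that no fold is given for Il23r, Il17a, Il17re, Blk or Sox13, and differences of these genes were not measurable on these arrays.

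**Figure D2:**
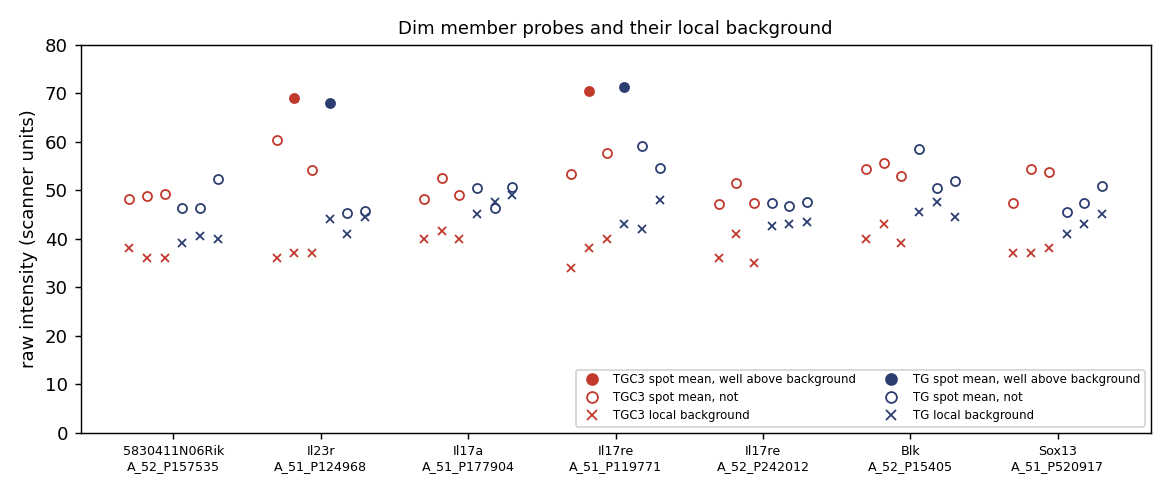
Raw intensity (scanner units, linear) of the 7 dim probes of the set on each array, TGC3 in red on the left of each probe and TG in blue on the right. Circles are the spot's mean signal, filled where it was well above background, and crosses are the local background. Spot means were 47.2 to 70.4 in TGC3 and 45.2 to 71.2 in TG, over a local background of 34 to 43 in TGC3 and 39 to 49 in TG.

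The promoters of the scavenger receptor genes are shown because these genes moved together: the 250 bases before the first start site of each, RefSeq, build GRCm38.p6, plus strand.
Cd163l1, chr7:140218017-140218266: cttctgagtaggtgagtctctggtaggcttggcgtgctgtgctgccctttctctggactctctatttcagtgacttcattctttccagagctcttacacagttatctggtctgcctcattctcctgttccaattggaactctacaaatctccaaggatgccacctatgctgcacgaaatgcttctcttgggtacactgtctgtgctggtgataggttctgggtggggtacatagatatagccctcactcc
5830411N06Rik, chr7:140247051-140247300: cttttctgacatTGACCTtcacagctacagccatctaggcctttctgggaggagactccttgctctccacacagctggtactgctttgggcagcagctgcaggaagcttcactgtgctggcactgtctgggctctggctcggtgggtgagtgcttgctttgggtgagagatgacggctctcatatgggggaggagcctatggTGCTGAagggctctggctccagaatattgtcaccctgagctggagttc
Capitals mark matches, on either strand, to AGGTCA, the core of the sites that ROR factors bind, to TGCTGA, the core of Maf recognition elements, or to ACAAAG, a core of HMG-box factors such as Sox13. The 5830411N06Rik window held an AGGTCA match at position -238 and a TGCTGA match at position -48 from the start, and the Cd163l1 window held none. Of 32851 promoters of this length, 14.0% held AGGTCA, 16.1% TGCTGA and 16.5% ACAAAG. Among the 6 genes of the set with a promoter in the table, Il17a, Il23r and 5830411N06Rik held AGGTCA and TGCTGA, in Il17a as overlapping matches, and Il17re, Sox13 and Cd163l1 held none of the motifs within the first window. These are matches of letters and not measured sites.

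The question of whether other genes around the scavenger receptors moved too was examined within 500000 bases on either side of the Cd163l1 probe. There, 23 kept probes of 20 other genes had a median difference of 0.25, and 2 were lower and 8 higher past the threshold, where 22.1% of all 25103 kept probes were past it either way. Kndc1, a guanine nucleotide exchange factor gene, gave the lowest, -1.72 ± 0.37 (adjusted p = 0.0224), on a probe above background on 1 of 3 TGC3 and 3 of 3 TG arrays. The kept probe of another gene nearest to that of Cd163l1 was of the olfactory receptor gene Olfr524. It had 117, 122 and 121 units in TGC3, against 71.9, 80.9 and 77 in TG (0.59 ± 0.07, adjusted p = 0.00464). Direction thus differed between the scavenger pair and Olfr524, whose probe was far dimmer than the kept probes of the pair (362 units or more). Whether dim probes shifted with the slide was not tested.

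**Figure D3:**
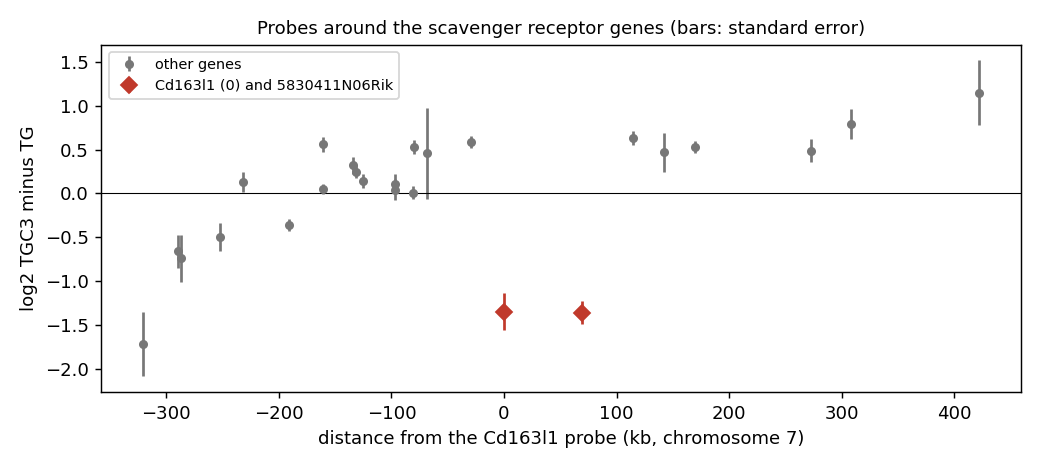
Log2 difference (TGC3 minus TG, bars are the standard error) of probes by their distance in kb from the Cd163l1 probe on chromosome 7. The diamonds are Cd163l1 (-1.35) and 5830411N06Rik (-1.36), and the dots are 23 probes of other genes, from -1.72 to 1.15.

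The receptor chains that would show gamma-delta cells are poorly named on the array: of 30 chain names listed, 1 had a probe (Trgv2), and Trdc had none. Probes whose description names a gamma or delta chain were therefore looked up after the lists were made, which gave 5 gamma and 3 delta probes. Of 7 kept, 2 were lower in TGC3 past the threshold and 0 higher, where 22.1% of all kept probes were past it. The first, of Trgv2 (AK042318, chr13:19400726-19400785), had 26, 20.1 and 25.7 units in TGC3, against 40.9, 56.4 and 79.3 in TG (-1.32 ± 0.22, adjusted p = 0.0107). The second, a V108B gamma chain clone (AK050604), had 111, 65.9 and 79 units in TGC3, against 128, 187 and 175 in TG (-1.01 ± 0.23, adjusted p = 0.0276). Leaving out TGC3 2, TGC3 3, TG 2 or TG 3 ended the call (adjusted p = 0.0586 to 0.0839). With normexp background correction on repaired backgrounds the differences were smaller, -0.53 for the first and -0.67 for the second.

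The probe of the gamma constant region (ENSMUST00000179181) overlapped between the groups, with 304, 184 and 228 units in TGC3, against 286, 461 and 535 in TG (-0.88 ± 0.27, adjusted p = 0.0605, or 0.0275 with arrays centred on the median). The brightest Trgv2 probe had 2970, 2090 and 2920 units in TGC3, against 2790, 4510 and 5570 in TG (-0.71 ± 0.25, adjusted p = 0.0929, or 0.0394 centred on the median and 0.0331 without TG 1). TG 1 lay among the TGC3 arrays in both. The delta chain probes AK038197 (-0.29 ± 0.12, adjusted p = 0.123) and AJ271436 (-0.24 ± 0.14, adjusted p = 0.282) did not pass. AK038197 was lower past the threshold with quantile normalization, the deposited values or centring on the median (adjusted p = 0.0434, 0.0433 and 0.016). Alpha-beta T cells can also carry rearranged gamma chain transcripts, and these probes do not tell the cell types apart.

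**Figure D4:**
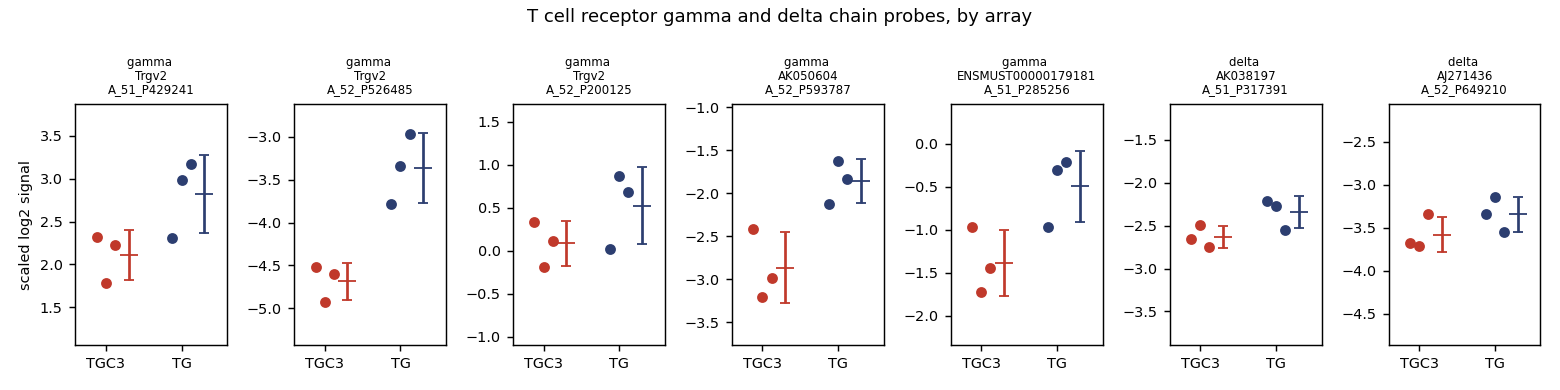
Scaled log2 signal of the 7 kept T cell receptor gamma and delta chain probes, TGC3 arrays left in red and TG arrays right in blue, with mean and SD (n = 3). The Trgv2 probe A_52_P526485 (-1.32) and the AK050604 probe (-1.01) lie apart between the groups, and the others overlap.

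Other genes of the gamma-delta and type 17 programme were taken from 7 lists of 128 names. Of these, 98 had a probe and 77 could be fitted: 11 were higher in TGC3 and 8 lower, while 58 passed in neither direction. Over all genes 16.6% were higher, 9.45% lower and 26.0% past the threshold either way, and the share of the lists was close to that. The median was -0.06, against -0.01 over all genes. With normexp on unrepaired backgrounds none of the 77 passed (0 higher, 0 lower), where 1 of all 16389 genes did. The lists with the most calls moved both ways. The receptor list, with 17 genes fitted, had 4 higher and 3 lower. The list of other genes that mark type 17 gamma-delta cells, with 16 fitted, had 4 higher and 1 lower (median 0.14). The list of type 1 counterparts, with 12 fitted, had 1 higher and 1 lower (median -0.19).

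Of the cytokines, 4 of 14 with a probe could be fitted. Il17f, the close relative of Il17a, had 24.6, 21.3 and 21.9 units in TGC3, against 15.3, 16.8 and 18.8 in TG (0.36 ± 0.09, adjusted p = 0.0358), close to the background limit. Csf2, the growth factor GM-CSF, had 447, 309 and 314 units in TGC3, against 515, 525 and 675 in TG (-0.75 ± 0.18, adjusted p = 0.0275). Each call was lost in 5 of the 6 fits that left out 1 array (up to adjusted p = 0.109 for Il17f and 0.0808 for Csf2). Il22, another type 17 cytokine, was above background on no array.

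Of the receptors, Ccr6, the chemokine receptor of type 17 cells, had 59, 82.3 and 55.9 units in TGC3, against 23.7, 31.8 and 32.3 in TG (1.10 ± 0.18, adjusted p = 0.00959). The groups did not overlap. Ltb4r1, a leukotriene receptor, had 61.2, 70.3 and 69.2 units in TGC3, against 38.1, 35.4 and 51.4 in TG (0.64 ± 0.12, adjusted p = 0.0143, 0.0503 without TG 1). Il17rd, a receptor that modulates interleukin 17 signalling, was higher (0.60 ± 0.06, adjusted p = 0.00319), although 1 of its 3 kept probes gave -0.32 and the mean of its probes was not past the threshold. Il21r, the receptor for interleukin 21, was lower (-0.69 ± 0.09, adjusted p = 0.00504), as was Il6st, the shared signalling chain of the interleukin 6 family (-0.57 ± 0.08, adjusted p = 0.00563). Il6ra was lower by -0.56 ± 0.12 (adjusted p = 0.0216), with an adjusted p up to 0.0717 when 1 array was left out. Il17ra, the receptor chain for Il17a, did not pass (0.23 ± 0.13, adjusted p = 0.251), and Il1r1 was above background on no array.

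Of 21 transcription factors fitted, 1 was higher and 1 lower, where 16.6% of all genes were higher and 9.45% lower. Rora, a nuclear receptor that promotes the type 17 programme, had 2160, 2140 and 2560 units in TGC3, against 1140, 1120 and 1240 in TG (0.91 ± 0.08, adjusted p = 0.00195). Its 3 probes gave 0.91, 0.92 and 1.00. Stat3, which carries the signals of interleukins 6 and 23, was lower (-0.25 ± 0.07, adjusted p = 0.0401), with an adjusted p of 0.0509 to 0.122 when any 1 array was left out. Among Src family kinases, Fgr was lower (-0.59 ± 0.15, adjusted p = 0.0384, up to 0.106 without 1 array).

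Among the 16 fitted genes known to mark type 17 gamma-delta cells, 4 were higher in TGC3 and 1 lower. Over all genes, 16.6% were higher and 9.45% lower. Serpinb1a, a protease inhibitor, had 691, 581 and 832 units in TGC3, against 169, 179 and 217 in TG (1.83 ± 0.14, adjusted p = 0.00138). Lgals3, a galectin, had 3790, 3460 and 3910 units in TGC3, against 1580, 1630 and 2450 in TG (0.95 ± 0.15, adjusted p = 0.00819). S100a4, a calcium-binding protein, had 96400, 77700 and 95000 units in TGC3, against 47800, 50700 and 58400 in TG (0.72 ± 0.11, adjusted p = 0.00698). Ly6g5b differed by 0.24 ± 0.06 (adjusted p = 0.037, 0.0566 to 0.114 without 1 array). Actn2, an actinin, was lower (-0.77 ± 0.15, adjusted p = 0.0153). Lgals3 and S100a4 are also expressed by myeloid cells, as Ccr6 is by B cells. Which cells carried these transcripts was not tested. Of the type 1 genes, Cd27 was lower (-0.40 ± 0.07, adjusted p = 0.00912) and Ifng, interferon gamma, differed by 0.59 ± 0.16 (adjusted p = 0.0393, up to 0.108 without 1 array).

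**Figure D5:**
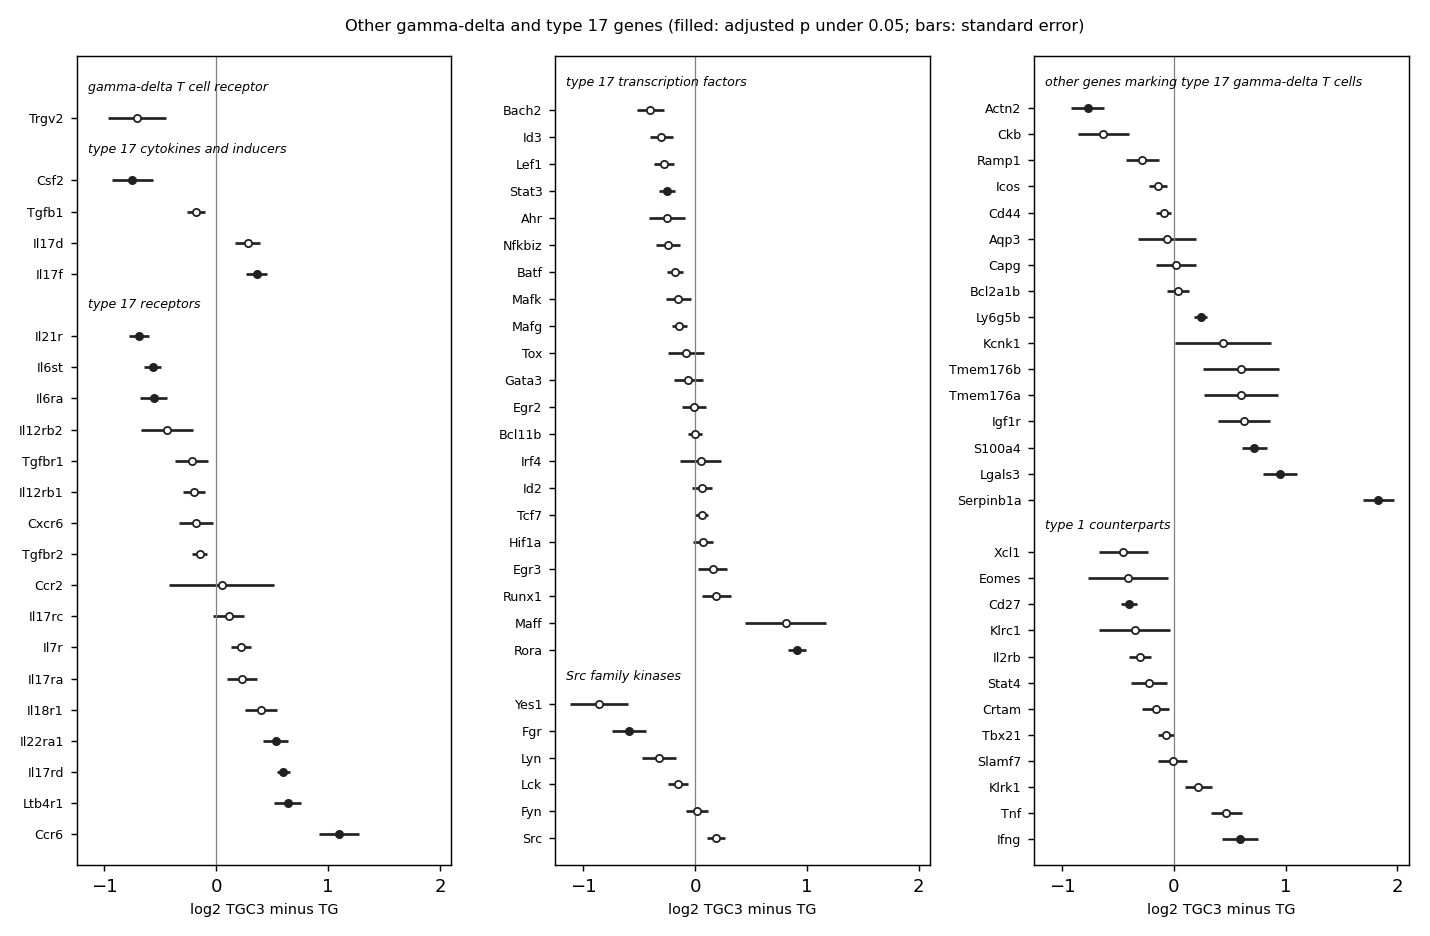
Log2 difference (TGC3 minus TG) of the 77 fitted genes of the 7 lists that are not in the set, with bars for the standard error and filled points for an adjusted p under 0.05. Filled points lie on both sides of 0, from -0.77 (Actn2) to 1.83 (Serpinb1a).

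Some markers of other cell types also differed between the groups, to be read against the 26.0% of all genes past the threshold (16.6% higher, 9.45% lower). Sums of signal below run over every gene of a list with a probe, fitted or not. Of the neutrophil list, with 5 of 13 genes fitted, 2 were higher and 1 lower, and summed signal was 1039 to 5080 units in TGC3 and 278 to 290 in TG. Most of the TGC3 sums was S100a9 (696 to 3680 units) and S100a8, and most of the TG sums was Mmp9 (164 to 192 units). Elane, Csf3r, Lcn2, Mmp8 and Cxcr2 of this list were above background on no array. S100a8, a gene of the neutrophil list, had 169, 976 and 333 units in TGC3. It was above background on 0 of 3 TG arrays, at least 28.2-fold higher in TGC3 (adjusted p = 0.00211). Mmp9, a protease of neutrophils, was lower (-2.31 ± 0.16, adjusted p = 0.00122). Of the macrophage list, with 7 of 15 fitted, 3 were higher and 0 lower, with sums of 1380 to 4435 units in TGC3 and 1381 to 1797 in TG. A large part of these sums was Ccr2 (627 to 2370 units in TGC3, 888 to 1190 in TG). The macrophage marker Lyz2, lysozyme, was highest on TGC3 2 and higher in TGC3 as a group (3.22 ± 0.81, adjusted p = 0.0334). Of the B cell list, with 8 of 15 fitted, 5 were higher and 1 lower, with sums of 4348 to 4617 units in TGC3 and 4123 to 5259 in TG. Most of these sums was Cd79b (3120 to 3540 units in TGC3, 2920 to 4010 in TG), so they say little of the other B cell genes. Ms4a1, the B cell surface protein CD20, was at least 3.52-fold higher (adjusted p = 0.00314), while Cd22, an inhibitory receptor of B cells, was lower (-0.92 ± 0.22, adjusted p = 0.0294). Pax5 was above background on no array. Alb, which marks hepatocytes, was above background on 1 TG array only. Of the remaining lists, calls were 4 higher and 0 lower of 7 dendritic cell genes, 2 higher and 0 lower of 3 hepatocyte, 4 cholangiocyte and 5 endothelial and stellate cell genes each, 1 higher and 3 lower of 9 innate lymphoid and NK cell genes, and 0 higher and 2 lower of 5 CD4 T cell genes.

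Without TGC3 2, the array with the highest neutrophil and macrophage sums, Cd163l1 differed by -1.29 and 5830411N06Rik by -1.42. The neutrophil list sums of TGC3 1 and TGC3 3, mostly S100a8 and S100a9, were still 1039 and 2002 units. Those of TG were lower, at 278 to 290 units. Leaving out TGC3 2 therefore does not remove that signal. The part of other cell types in the differences of Cd163l1, 5830411N06Rik, Serpinb1a, Lgals3, S100a4, Ccr6 and Rora was not tested. The CD8 T cell list had 0 of 10 fitted genes higher and 4 lower (median -0.21), where 16.6% of all genes were higher and 9.45% lower. The lower genes were Cd6 (-0.40 ± 0.08, adjusted p = 0.0188), Cd5 (-0.41 ± 0.11, adjusted p = 0.035), Cd3g (-0.29 ± 0.08, adjusted p = 0.0415) and Cd3d (-0.25 ± 0.07, adjusted p = 0.048). Cd3e, a chain of the receptor complex of all T cells, gave -0.22 ± 0.07 (adjusted p = 0.0519).

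The genes with profiles most like that of Cd163l1 over the 6 arrays, by the smallest root mean square difference of centred log2 values, were Olfr48 (0.172), 5830411N06Rik (0.179), AK086152, Fat2 and TC1724170 (0.216). AK086152 lay under the background limit on TGC3 1 and TGC3 2, and Fat2 on TGC3 1, so no distance is given for them. 5830411N06Rik was chosen with its fall on these arrays in view, so its likeness is a description only, and seen from it Cd163l1 ranked 9 among all genes. Olfr48 is an olfactory receptor gene and Fat2 an atypical cadherin, and both had low signal. Scaled log2 values of Olfr48 were -4.41 to -4.12 in TGC3 and -2.99 to -2.80 in TG. The distance of Maf was 0.903 from Cd163l1 and 0.872 from 5830411N06Rik. Such distances largely restate the group differences, since a gene that falls by a like amount comes out close.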

How the data were processed

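Each of 6 samples (3 TGC3, 3 TG, grouped by their labelled genotype) was read on 1 one-colour Agilent array of 45018 spots. Per the file headers, the authors read spots with Feature Extraction 10.7.3.1 (the submitters' processing notes name 10.7.1.1), and processed signals are intensity values corrected for background and spatial trend, not normalized between arrays. Spot means and local backgrounds are raw intensity, per the file headers. The deposited matrix is on a log2 scale with the same median (5.57) in all 6 columns and correlated at 0.9993 to 1 with the log2 processed signal. How it was made is not given in the sources used here.

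Of 43379 non-control spots, 41174 probes were distinct, 11 were left out as outliers, and 0 spots were saturated. The log2 signal was scaled by each array's 75th percentile, 25103 probes passed the filter (well above background on 3 or more of 6 arrays), and the brightest of these stood for its gene. RefSeq names were found by accession (27668 probes), symbol (5589) or synonym (471), and 7446 kept the name in the files. Positions of probes follow the files' mm9. Groups were compared with limma 3.58.1 in R 4.3.3 with data.table (1.17.8), two-sided, with Benjamini-Hochberg adjustment over 16389 genes, or over 25103 probes where single probes are given. Other steps and figures used Python 3.11.15, numpy 2.4.6, pandas 2.3.3 and matplotlib 3.10.9. The fit was tested on simulated data.

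The genes of the set, the gene lists and the naming rule were chosen with earlier results of these data known. The rule took every probe of the 8 genes, up to 6 genes per list past the threshold by size, Il17f, Il22, Ccr6, Il1r1, Il17ra, Rora and Trdc, the markers Cd8a, Cd8b1, Cd3e, Cd4, Ms4a1, Lyz2, S100a8 and Alb, and the 5 profiles most like Cd163l1. Some genes that the rule takes are not reported here. Pax5, Mmp9, Cd22, Cd79b, Ccr2, Olfr524, Kndc1 and the chain probes were chosen after their values were seen. So were S100a9, Elane, Csf3r, Lcn2, Mmp8, Cxcr2, Cd3d, Cd3g, Cd5 and Cd6. Same-numbered samples did not deviate together (correlations of 0, -0.08 and -0.10), and the main fit did not pair them. With 3 samples per group, these correlations cannot show whether samples were paired. Alternatives were other normalizations, background corrections, filters, probe rules, variance models, a replicate block, and the omission of each array. The number of arrays limits the precision, and the calls above background set the depth.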

Additional observations from a re-analysis of the deposited data

How the results depend on the processing

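Both scavenger receptor genes were lower in TGC3 in all 17 alternatives and past the threshold in 16, the exception being normexp on unrepaired backgrounds. They were chosen with this fall in view, and every alternative reused the same arrays, so these counts are a description only. Changing the filter, the variance model or the replicate block left the differences at -1.35 and -1.36 by construction. Genes past the threshold numbered 4268, against 6567 when arrays were centred on the median, 1 with that normexp correction (507 at an unadjusted p under 0.05, against 6560), 2670 with no filter, 2349 with the replicate number as a block, and 2359 to 3861 without 1 array. Centring on the median moved the median of all genes to -0.18 and the share of calls that were higher to 27.4%, against 63.7%. That share was 52.2% with 7 aberrant backgrounds replaced before normexp. Of the 8 genes, 3 were past the threshold, against 0 with unrepaired normexp and 2 to 3 without 1 array. Of the listed genes, 11 were higher, against 0 with unrepaired normexp, 7 with the replicate block and 6 to 11 without 1 array. The lower ones numbered 8, against 24 when centred on the median, 0 with unrepaired normexp, 4 with no filter, 4 with the replicate block and 4 to 11 without 1 array. Under unrepaired normexp, Il17f, Ccr6, Ltb4r1 and Stat3 also changed direction (-0.88, -0.35, -0.53 and 0.17), and with background repair the number higher was 12. Maf and Actn2 did not pass with the replicate block (Actn2 at adjusted p = 0.0623). Nor did Il17f, Csf2, Il6ra, Stat3, Fgr, Ly6g5b, Ifng and Il22ra1, a further receptor called higher. The call of the gamma chain probe AK050604 was also lost with that block. The cause of these shifts was not tested, except that fewer arrays were fitted without 1 array. For Il23r, Il17a, Il17re, Blk and Sox13, signal over background limits what can be seen.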

Other observations

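The profile of 5830411N06Rik, looked up after its values were seen, was closest to Olfr48 (root mean square difference 0.0869), Klra23 (0.111), Cxcr5 (0.124), Klra16 (0.143) and Klra7 (0.15). Klra23, Klra16 and Klra7 are genes of the Ly49 receptors of NK cells and of some CD8 T cells, and their differences were -1.30, -1.37 and -1.26. Cxcr5, a chemokine receptor of follicular T cells and B cells, had 818, 1210 and 1110 units in TGC3, against 2830, 2660 and 3060 in TG (-1.53 ± 0.14, adjusted p = 0.00226). Ly49 transcripts are near copies of one another, so that their probes may read more than 1 gene.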
